A study of Mus musculus with 14 samples.

Results

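Expression of 10 immediate early genes, *Fos*, *Fosb*, *Junb*, *Egr1*, *Npas4*, *Nr4a1*, *Arc*, *Dusp1*, *Btg2* and *Ier2*, was followed across RNA sequencing libraries of mouse cerebellum with and without *Astn2*. The genes were taken by name from a table of 24100 genes, and all 10 passed the filter on low counts in each comparison. All mice carried the transgene Tg(Pcp2-L10a-EGFP), which puts an EGFP-tagged ribosomal protein under the Purkinje cell promoter *Pcp2*, and were taken at postnatal day 21. In translating ribosome affinity purification (TRAP), antibodies against GFP pull down the tagged ribosomes with the RNA on them. Input is a small part of the cleared homogenate kept back before that step, and stands for whole cerebellum. Per the labels, mice were *Astn2* wild type (WT) or *Astn2* knockout (KO) littermates. There were 4 input WT libraries (1 female, 3 male), 3 input KO libraries (2 female, 1 male), 3 TRAP WT libraries (1 female, 2 male) and 4 TRAP KO libraries (2 female, 2 male). The labels do not say whether each library came from a separate animal, so p-values measure the spread between these libraries.

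Immediate early genes are transcribed within minutes of a stimulus from factors already present in the cell, without new protein synthesis. In neurons, calcium entry acts through kinases on the transcription factors CREB and SRF, and the resulting messages are short-lived. Many of the proteins are transcription factors that act on later genes, others act at synapses, and some end the response. In the cerebellum these genes are read as marks of recent activity in granule cells, Purkinje cells and other cells.

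Between 18.8 and 54.2 M counts (M, 1e6) were assigned to genes in each library. *Astn2* itself stood at 88.7 to 104 CPM (counts per 1e6 counts, scaled with TMM factors) in input WT and 117 to 146 CPM in TRAP WT. In the libraries labelled KO it stood at 0.729 to 0.968 CPM in input and 1.06 to 2.11 CPM in TRAP. The Purkinje label of the TRAP fraction was checked with 10 markers, all of which were higher in TRAP than in input in both genotypes (edgeR's quasi-likelihood test, Benjamini-Hochberg adjusted p under 0.05). Their summed level was 6034 to 7076 CPM in input and 78484 to 99942 CPM in TRAP. The 10 granule cell markers were all lower in TRAP, with a summed level of 5421 to 5739 CPM in input and 889 to 1675 CPM in TRAP. RNA of other cells was therefore still present in TRAP, and no granule marker was at 0 in any library. In such bulk samples, fewer cells of a type and less RNA per cell cannot be told apart.

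The bases just before the transcription start of immediate early genes carry the sites through which CREB acts, and those of *Fos*, *Nr4a1* and *Btg2* are shown because these genes differ in the patterns described below: *Fos* overlapped between the fractions, *Nr4a1* was lower in TRAP and varied widely between input libraries, and *Btg2* was lower in TRAP with a smaller spread. RefSeq windows of 300 bases (250 before to 50 after the start, GRCm38.p6) were matched for 7 of the 10 genes. The 250 bases before the start are printed 5′ to 3′ on the gene's strand. Capitals mark TGACG or its reverse complement CGTCA, the core of the cyclic AMP response element, and TATAAA. *Fos* is at chr12:85473640-85473889 on the plus strand, *Nr4a1* at chr15:101266596-101266845 on the plus strand and *Btg2* at chr1:134079156-134079405 on the minus strand.
Fos: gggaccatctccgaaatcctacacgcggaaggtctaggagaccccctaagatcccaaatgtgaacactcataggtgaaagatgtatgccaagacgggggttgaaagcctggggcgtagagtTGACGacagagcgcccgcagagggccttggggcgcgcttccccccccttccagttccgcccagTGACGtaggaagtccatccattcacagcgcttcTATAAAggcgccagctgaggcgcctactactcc
Nr4a1: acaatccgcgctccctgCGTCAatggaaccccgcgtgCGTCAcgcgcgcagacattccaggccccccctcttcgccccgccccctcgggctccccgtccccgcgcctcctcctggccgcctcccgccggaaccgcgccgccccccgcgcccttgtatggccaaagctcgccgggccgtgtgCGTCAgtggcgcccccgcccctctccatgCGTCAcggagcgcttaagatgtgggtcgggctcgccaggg
Btg2: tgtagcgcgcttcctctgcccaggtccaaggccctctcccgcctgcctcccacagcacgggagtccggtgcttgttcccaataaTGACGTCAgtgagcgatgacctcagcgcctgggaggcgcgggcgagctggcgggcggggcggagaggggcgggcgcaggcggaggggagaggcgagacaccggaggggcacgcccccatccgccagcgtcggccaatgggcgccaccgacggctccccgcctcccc

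The TGACG core, searched on both strands of the 300-base windows, was present in 7 of the 7 immediate early genes matched (*Fos*, *Fosb*, *Junb*, *Npas4*, *Nr4a1*, *Dusp1* and *Btg2*). It was present in 21% of all 27018 promoter windows in the table. In *Fos* the cores began 129 and 66 bases before the start, with TATAAA at 33 bases. *Nr4a1* held 4 cores, all in the CGTCA orientation, beginning 233, 213, 69 and 40 bases before the start. The full palindrome TGACGTCA, which contains the core on both strands, was found in 2 of the 7, *Btg2* and *Dusp1*, against 1.88% of all windows. The EGR motif GCGNGGGCG was found in *Btg2*, *Fosb* and *Nr4a1* (3 of 7, against 5.56% of all windows), and TATAAA in *Junb* and *Fos* (2 of 7, against 14.2%). The CArG box bound by SRF was in 0 of 7 (1.57% of all windows), and the AP-1 motif TGANTCA in 0 of 7 (7.94% of all windows). These are matches of letters in this window only.

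Levels between genes were compared per length, as CPM per kb of the longest GENCODE M21 transcript. In input WT, *Dusp1*, a phosphatase that switches off MAP kinases, had the highest mean at 23.8 ± 10.2 CPM per kb (SD, n = 4). *Ier2*, a nuclear protein of the fast response, followed at 16.7 ± 2.75 CPM per kb (SD, n = 4). *Nr4a1*, an orphan nuclear receptor, averaged 10.6 ± 5.96 CPM per kb and *Fos*, an AP-1 subunit, 10.1 ± 6.85 CPM per kb (SD, n = 4 each). *Egr1* at 8 ± 0.952, *Btg2* at 7.08 ± 0.687, *Junb* at 6.37 ± 1.97 and *Arc* at 4.03 ± 0.384 CPM per kb came next (SD, n = 4 each). *Npas4*, a neuronal transcription factor that answers to calcium, averaged 0.738 ± 0.515 CPM per kb, and *Fosb*, another AP-1 subunit, 0.197 ± 0.0958 CPM per kb (SD, n = 4 each). Neighbours in this order overlapped in their ranges except *Arc* and *Npas4*, which were separate.

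In TRAP WT the order differed. *Ier2* stood first at 19.5 ± 5.55 CPM per kb, above *Dusp1* at 7.58 ± 1.73 CPM per kb with no overlap (SD, n = 3 each). *Fos* at 5.22 ± 2.89, *Junb* at 4.81 ± 0.344 and *Btg2* at 2.43 ± 0.820 CPM per kb followed (SD, n = 3 each). *Egr1* at 1.66 ± 1.08, *Nr4a1* at 1.42 ± 0.314 and *Arc* at 1.28 ± 0.249 CPM per kb had overlapping ranges (SD, n = 3 each). *Npas4* and *Fosb* were again the lowest, at 0.134 ± 0.116 and 0.123 ± 0.0741 CPM per kb (SD, n = 3 each). In TRAP KO, *Ier2* at 22.5 ± 8.58 and *Fos* at 11.6 ± 6.63 CPM per kb had the highest means and their ranges overlapped (SD, n = 4 each).

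**Figure D1:**
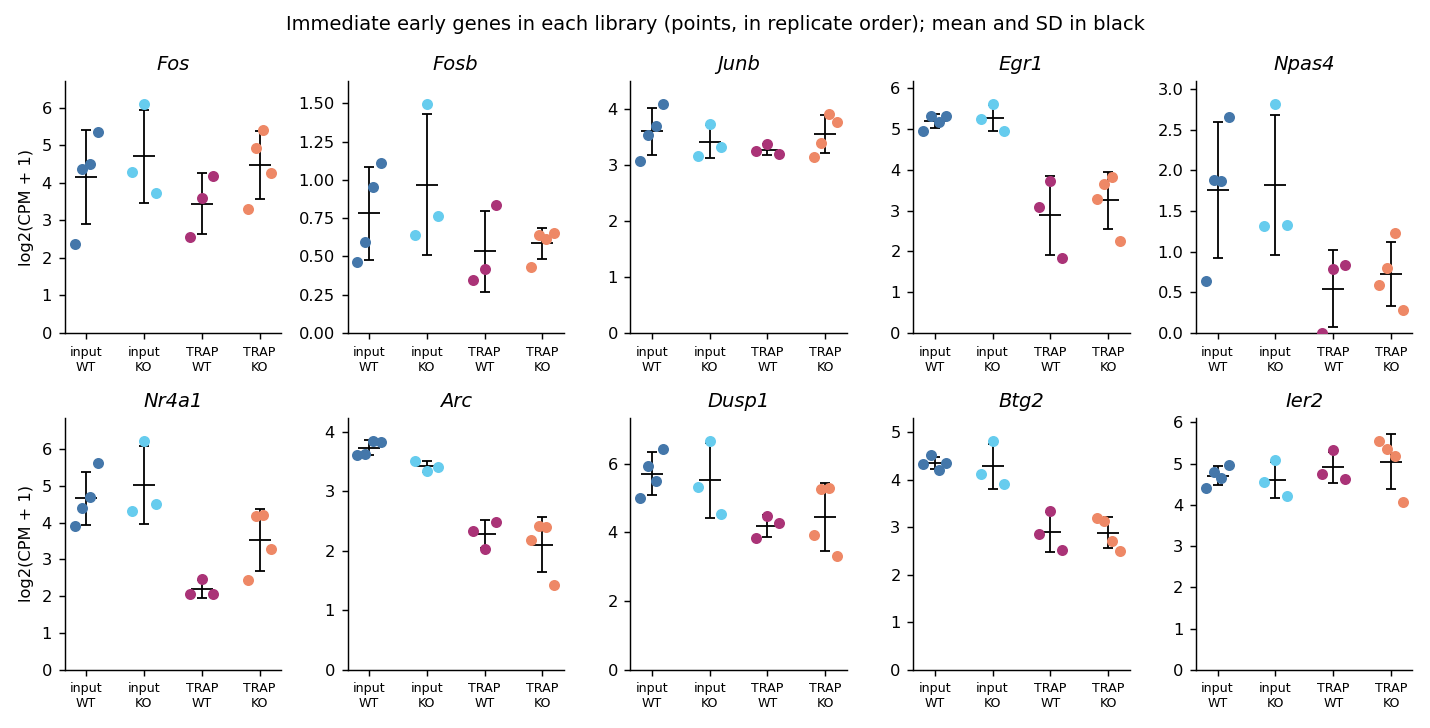
Level of each immediate early gene, as log2(CPM + 1), in every library; points are libraries in replicate order within input WT, input KO, TRAP WT and TRAP KO, and black marks give the group mean and SD. *Egr1*, *Arc* and *Btg2* sit lower in every TRAP library than in any input library, while *Fos*, *Junb* and *Ier2* overlap between the fractions.

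The AP-1 genes did not pass edgeR's test between TRAP and input in either genotype, though *Fos*, *Fosb* and *Junb* each passed under at least 1 alternative. *Fos* (chr12:85473890-85477273, GENCODE M21 on GRCm38, as are all gene positions), whose product pairs with Jun proteins, stood at 4.21, 19.8, 21.5 and 39.5 CPM in input WT and at 18.4, 67.5 and 12.2 CPM in input KO. Its TRAP levels were 4.92, 11 and 17.1 CPM in WT and 8.85, 29.6, 41.1 and 18.3 CPM in KO. Fractions overlapped in both genotypes, and libraries of one group differed by up to 9.38-fold (input WT). The log2 fold change of TRAP against input was -0.83 ± 0.71 in WT (SE, edgeR adjusted p = 0.299) and -0.76 ± 0.71 in KO (SE, edgeR adjusted p = 0.342). In KO it ran from -1.5 (adjusted p = 0.0479, without input KO replicate 3) to 0.48 (without input KO replicate 2).

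*Fosb* (chr7:19302696-19310051) was close to the low end of detection, at 0.380 to 1.16 CPM in input WT, 0.562 to 1.82 CPM in input KO, 0.273 to 0.788 CPM in TRAP WT and 0.351 to 0.575 CPM in TRAP KO. The lowest of these levels rests on 4 counts. Its log2 fold change of TRAP against input was -0.58 ± 0.55 in WT (SE, edgeR adjusted p = 0.351) and -1.11 ± 0.51 in KO (SE, edgeR adjusted p = 0.0603). In KO it passed in 5 of 20 alternatives, among them DESeq2's Wald test (-1.15, adjusted p = 0.0435) and the fits without input KO replicate 1 (-1.36, adjusted p = 0.0331) or input KO replicate 3 (-1.61, adjusted p = 0.018). *Junb* (chr8:84974484-84978718), a partner of Fos that restrains Jun, stood at 7.42, 10.6, 12 and 16 CPM in input WT and at 7.99, 12.4 and 9.03 CPM in input KO. In TRAP it stood at 8.48, 9.40 and 8.21 CPM in WT and 7.88, 9.51, 14 and 12.6 CPM in KO. The log2 fold change was -0.35 ± 0.23 in WT (SE, edgeR adjusted p = 0.170) and 0.06 ± 0.22 in KO (SE, edgeR adjusted p = 0.812). With only genes of a mean count of at least 50 in the fit, *Junb* was lower in TRAP in WT (-0.56, edgeR adjusted p = 0.0394). Exons of *Junb* overlap those of *Prdx2* on the other strand, and whether the counting used strand is not given in the sources used here, so part of its count is uncertain.

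*Egr1*, *Nr4a1* and *Npas4*, transcription factors outside AP-1, were lower in TRAP in both genotypes. *Egr1*, a zinc finger factor, stood at 30.0, 39.2, 35.2 and 38.9 CPM in input WT and 7.52, 12.2 and 2.57 CPM in TRAP WT. The KO libraries stood at 36.8, 48.1 and 30.1 CPM in input and 8.70, 11.6, 13.1 and 3.81 CPM in TRAP. The TRAP libraries all lay under the input libraries, by 4.95-fold in the WT fit (log2 -2.31 ± 0.45 SE, edgeR adjusted p = 3.46e-04) and 4.06-fold in the KO fit (log2 -2.02 ± 0.41 SE, edgeR adjusted p = 5.19e-04).

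*Nr4a1* (chr15:101254269-101274795) stood at 14, 20.0, 25.1 and 48.8 CPM in input WT and at 3.14, 4.56 and 3.19 CPM in TRAP WT. In KO it stood at 19.2, 74.3 and 21.8 CPM in input and at 4.41, 17.1, 17.4 and 8.76 CPM in TRAP. The groups did not overlap in either genotype, but the highest TRAP KO library came close to the lowest input KO library. The log2 fold change was -2.86 ± 0.64 in WT (SE, edgeR adjusted p = 0.0011) and -1.76 ± 0.56 in KO (SE, edgeR adjusted p = 0.0119). The KO call rested on input KO replicate 2, without which the value was -0.79 (edgeR adjusted p = 0.144).

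*Npas4* (chr19:4984355-4990316) stood at 0.555, 2.68, 2.64 and 5.32 CPM in input WT and at 0.732 and 0.788 CPM in replicates 2 and 3 of TRAP WT. It had 0 counts in TRAP WT replicate 1, where 3 counts would be 0.205 CPM. Input KO libraries stood at 1.5, 6.04 and 1.5 CPM and TRAP KO libraries at 0.507, 0.737, 1.35 and 0.221 CPM. The WT groups overlapped through input WT replicate 1, and the KO groups did not. The log2 fold change was -2.30 ± 0.87 in WT (SE, edgeR adjusted p = 0.0276) and -2.38 ± 0.80 in KO (SE, edgeR adjusted p = 0.0147). The WT call was lost without input WT replicate 4 (-1.85, adjusted p = 0.0721) or without TRAP WT replicate 1 (-1.90, adjusted p = 0.0793), and the KO call without input KO replicate 2 (-1.18, adjusted p = 0.142).

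*Arc* (chr15:74669083-74672570), whose message travels into dendrites and whose protein acts in the removal of AMPA receptors from synapses, stood at 11.2, 11.4, 13.4 and 13.2 CPM in input WT and 4.03, 3.09 and 4.6 CPM in TRAP WT. In KO it stood at 10.4, 9.09 and 9.63 CPM in input and 3.55, 4.32, 4.28 and 1.68 CPM in TRAP. The fractions were apart in every library. The log2 fold change was -1.66 ± 0.26 in WT (SE, edgeR adjusted p = 4.57e-05) and -1.48 ± 0.24 in KO (SE, edgeR adjusted p = 7.8e-05).

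Of the genes that end or limit the response, *Btg2* was lower in TRAP in both genotypes and *Dusp1* in WT. *Btg2* (chr1:134075170-134079120), an antiproliferative protein that recruits the deadenylase of messenger RNA, stood at 19.2, 21.9, 17.3 and 19.3 CPM in input WT, and at 6.22, 9.12 and 4.69 CPM in TRAP WT. KO levels were 16.3, 27.2 and 14.1 CPM in input and 8.11, 7.76, 5.57 and 4.65 CPM in TRAP. TRAP libraries were below all input libraries, by 2.96-fold in WT (log2 -1.57 ± 0.26 SE, edgeR adjusted p = 7.6e-05) and 2.83-fold in KO (log2 -1.5 ± 0.24 SE, edgeR adjusted p = 6.96e-05). *Dusp1* (chr17:26505590-26562128) stood at 30.8, 60.1, 43.8 and 85.8 CPM in input WT and 13.2, 21.1 and 18.3 CPM in TRAP WT, with no overlap. In KO it stood at 39.1, 101 and 22.3 CPM in input and at 14.2, 37.1, 37.9 and 8.85 CPM in TRAP, where the groups overlapped. Its log2 fold change was -1.65 ± 0.58 in WT (SE, edgeR adjusted p = 0.0194) and -1.14 ± 0.56 in KO (SE, edgeR adjusted p = 0.0807). The WT call was lost without input WT replicate 4 (-1.36, adjusted p = 0.0542) or without TRAP WT replicate 1 (-1.45, adjusted p = 0.0755). In KO it passed without input KO replicate 3 (-1.69, adjusted p = 0.0171), TRAP KO replicate 2 (-1.62, adjusted p = 0.0418) or TRAP KO replicate 3 (-1.42, adjusted p = 0.0417). In GENCODE M21, exons of *Dusp1* overlap those of *Ergic1* on the other strand. Whether the annotation used for counting held these exons is not given, so the *Dusp1* count carries a doubt like that of *Junb*.

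*Ier2* (chr8:84661331-84662852) had the highest log2 fold change of the 10 genes in both genotypes. It stood at 20.3, 26.9, 24.0 and 30.2 CPM in input WT and 26, 39.4 and 23.8 CPM in TRAP WT. In KO it stood at 22.3, 32.9 and 17.6 CPM in input and 46.1, 39.7, 35.7 and 15.8 CPM in TRAP. The groups overlapped, and the log2 fold change was 0.21 ± 0.30 in WT (SE, edgeR adjusted p = 0.546) and 0.53 ± 0.30 in KO (SE, edgeR adjusted p = 0.126). Without TRAP KO replicate 4 it was higher in TRAP in KO (0.74, edgeR adjusted p = 0.0155). So it was with libraries of the same replicate number fitted as a block (0.78, edgeR adjusted p = 0.00363). That fit also leaves out TRAP KO replicate 4, and the labels do not say that the numbers pair libraries.

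In count, 6 of the 10 genes were lower and 0 higher in TRAP in WT (edgeR adjusted p under 0.05), where 38.5% of all 16042 genes tested were lower and 37% higher. In KO 5 were lower and 0 higher, against 39.6% of all genes lower and 36.3% higher. The median log2 fold change of the 10 genes was -1.61 in WT and -1.31 in KO, against -0.09 and -0.11 over all genes tested. Markers of other cells had medians of -2.19 (granule cells), -1.68 (astroglia), -1.87 (oligodendrocytes) and -2.07 (microglia) in WT, and -1.97, -1.54, -1.65 and -1.86 in KO. Medians were -1.34 (interneurons), -1.82 (endothelium), -1.73 (mural cells) and -1.20 (choroid plexus) in WT, and -1.20, -1.25, -1.25 and -4.46 in KO. In WT, 3 of 8 interneuron markers, 1 of 10 astroglia markers and 1 of 6 choroid plexus markers passed as higher in TRAP. The Purkinje markers stood at 3.66 in WT and 3.47 in KO. The part of RNA from other cells in these fold changes was not tested.

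Scaling by library totals alone in place of TMM factors moved the median of all genes by -0.82 in WT and -0.73 in KO. Under that scaling 8 of the 10 genes were lower in each genotype, *Ier2* turned to -0.62 in WT and -0.21 in KO, and *Junb* turned to -0.67 in KO (edgeR adjusted p = 0.0169). The split of all genes then was 3135 higher and 9801 lower in WT, against 5937 and 6181 with TMM factors, and 3132 and 9670 in KO, against 5817 and 6359. The direction of *Ier2* in both genotypes and of *Junb* in KO therefore depended on the scaling, and that of the other genes did not.

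**Figure D2:**
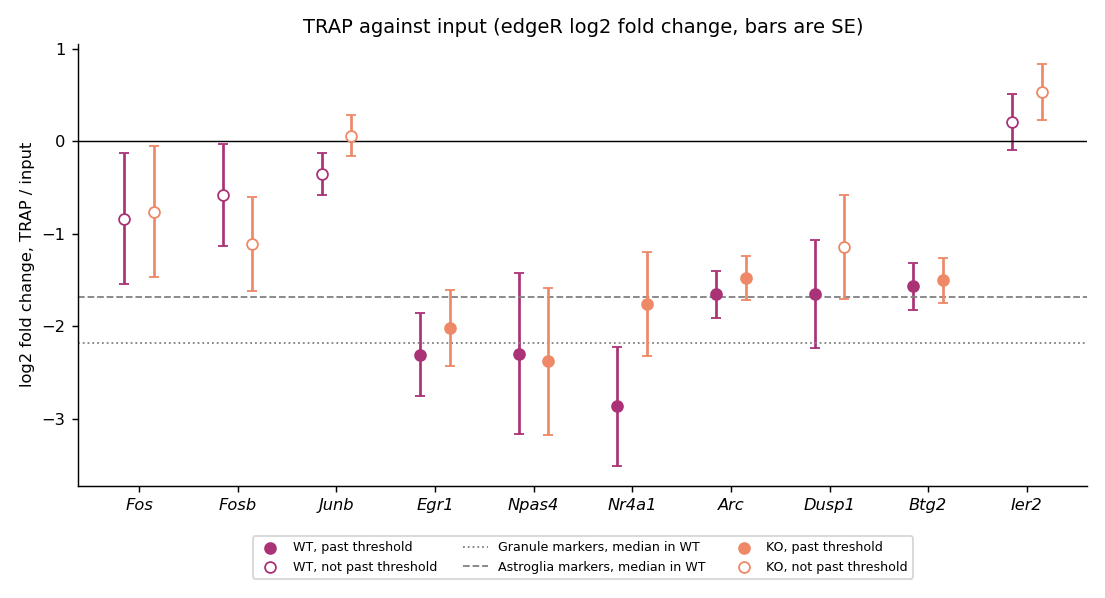
Log2 fold change of TRAP against input for each gene in WT and KO, with SE bars; filled points passed the edgeR threshold, and horizontal lines give the median of the granule cell and astroglia markers in WT. *Egr1*, *Npas4*, *Nr4a1*, *Arc* and *Btg2* passed in both genotypes, *Dusp1* in WT, and *Fos*, *Fosb*, *Junb* and *Ier2* in neither.

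The level of granule cell RNA left in TRAP differed between libraries, and 3 of the 10 genes were lowest in the same libraries as the granule markers. TRAP WT replicate 3 and TRAP KO replicate 4 had the lowest summed granule markers, 984 and 889 CPM, against 1284 to 1675 CPM in the other 5 TRAP libraries. These 2 libraries were below all other TRAP libraries for 3 of the 10 genes, *Egr1*, *Btg2* and *Ier2*, which was so for 15% of the 14145 genes tested in TRAP, for 6 of 10 granule markers, 8 of 10 oligodendrocyte markers, 6 of 10 astroglia markers and 2 of 10 Purkinje markers. *Egr1* stood at 2.57 and 3.81 CPM there and at 7.52 to 13.1 CPM in the others. *Fos* did not share this order, at 17.1 and 18.3 CPM in these libraries and 4.92 to 41.1 CPM in the others. The part of cell makeup in this pattern was not tested.

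**Figure D3:**
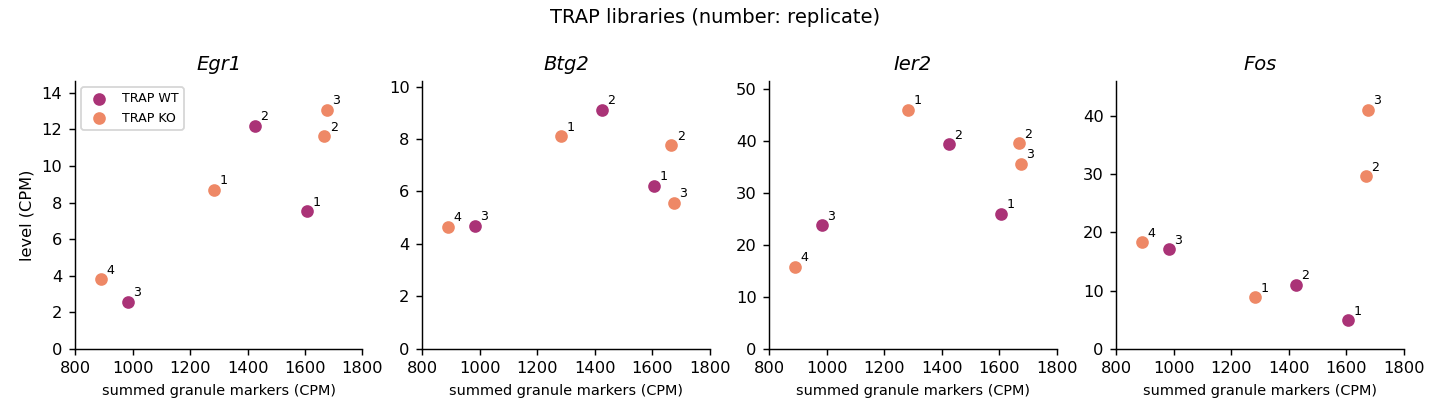
Levels of *Egr1*, *Btg2*, *Ier2* and *Fos* (CPM) against the summed level of 10 granule cell markers (CPM) in the 7 TRAP libraries; numbers are replicates. TRAP WT replicate 3 and TRAP KO replicate 4, at 984 and 889 CPM of granule markers, are lowest for the first 3 genes and in mid range for *Fos*.

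Variation between libraries of the same group was large for most of these genes in input, and for 5 of them in TRAP. The SD within groups of log2(CPM + 1) in input was 1.25 for *Fos*, larger than that of 99.9% of all genes tested in input. It was 0.87 for *Nr4a1*, 0.85 for *Npas4* and 0.83 for *Dusp1*, above 99.7%, 99.6% and 99.6% of genes. *Fosb* (0.37), *Junb* (0.37), *Ier2* (0.33), *Btg2* (0.32) and *Egr1* (0.25) were above 94.7% to 98.5% of genes. *Arc* at 0.11 was the exception, near the median of all genes, 0.11. In TRAP the SD was 0.87 for *Fos*, 0.81 for *Egr1*, 0.79 for *Dusp1* and 0.67 for *Nr4a1*, above 97.5% to 99.2% of genes, and 0.57 for *Ier2*, above 95.4%. *Npas4* (0.43), *Arc* (0.39), *Btg2* (0.37) and *Junb* (0.27) were above 60.7% to 87.5% of genes, and *Fosb* at 0.19 was above 30.8%. *Fosb* and *Npas4* lay near or under 1 CPM in TRAP, where the pseudocount of 1 narrows the spread on this scale. The median over the 10 genes was 0.37 in input and 0.50 in TRAP, against 0.11 and 0.24 over all genes.

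Most of the 10 genes varied together in input. Input KO replicate 2 was the highest of the 7 input libraries for 8 of the 10 genes, the exceptions being *Junb* and *Arc*, and was the lowest for *Arc*. Input WT replicate 4 was above its group mean for 9 of the 10 genes, and input WT replicate 1 was the lowest input library for 6 of them. The summed level of the 10 genes was 380 CPM in input KO replicate 2 and 298 CPM in input WT replicate 4, against 138 to 213 CPM in the other 5. The sum of 11 heat shock genes was 1833 CPM in input KO replicate 2, inside the 1602 to 2348 CPM of the other input libraries. Most of that sum was *Hspa8* (904 CPM) and *Hsp90aa1* (502 CPM), so it hides changes in genes of low level. *Hspa1a* stood at 6.04 CPM in this library, against 6.23 to 8.95 CPM in the other input libraries. *Hspa1b* stood at 8.71 CPM, against 4.62 to 18.1 CPM.

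Input KO replicate 2 also stood apart in 6 choroid plexus markers. Their sum was 1170 CPM there, 9.88 and 11.9 CPM in the other input KO libraries and 11.4 to 401 CPM in input WT, with *Folr1* at 0 in a library of input WT. In TRAP the sum was 85.0 to 105 CPM in KO and 114 to 204 CPM in WT, with *Folr1* and *Kcne2* at 0 in some libraries of each. *Clic6* made up most of the sum in TRAP KO (81.6 to 103 CPM), where *Ttr*, the most abundant choroid marker in input KO replicate 2 (1078 CPM), stood at 1.15 to 1.88 CPM. In TRAP WT *Ttr* stood at 2.12, 97.0 and 66.2 CPM. Input WT replicate 4, the next highest for the immediate early genes, held the lowest choroid sum of the input WT libraries, 11.4 CPM.

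**Figure D4:**
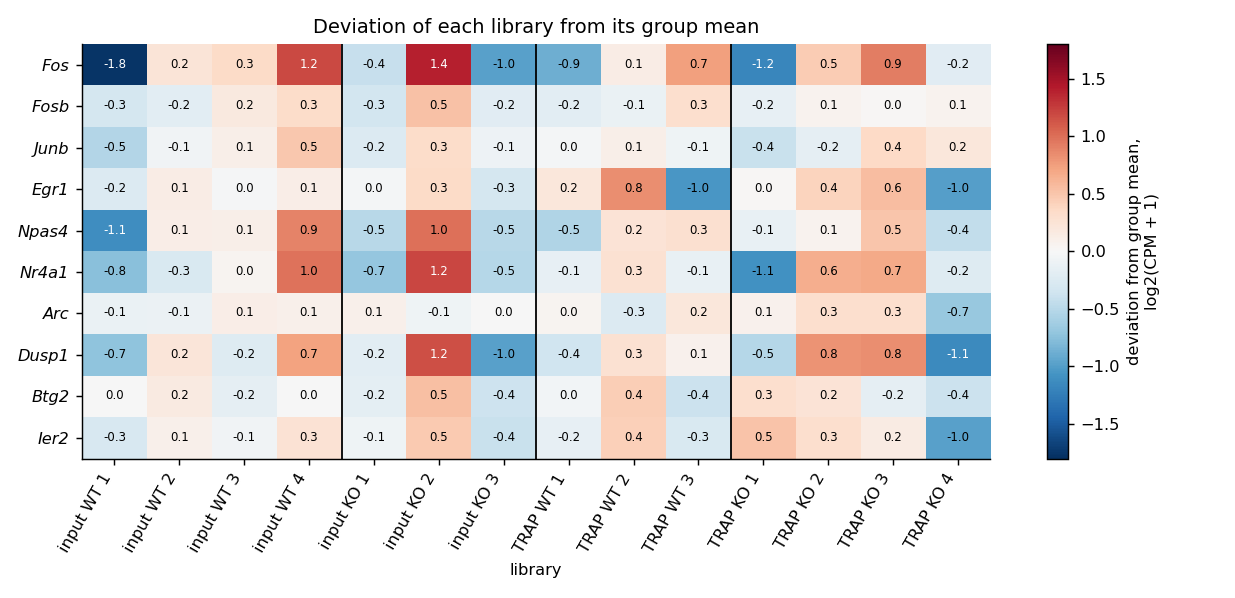
Deviation of each library from its group mean on the log2(CPM + 1) scale, for the 10 genes (rows) in 14 libraries (columns, grouped by fraction and genotype). Input KO 2 and input WT 4 are above their means in 9 of 10 genes each, input WT 1 in 0, and *Arc* stays within 0.1 in input after rounding.

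Over the 7 input libraries, Pearson's r of each gene's deviations with the mean of the other 9 was 0.98 for *Npas4*, 0.96 for *Fos*, 0.95 for *Ier2*, 0.94 for *Nr4a1* and 0.94 for *Dusp1*. It was 0.91 for *Egr1*, 0.91 for *Fosb* and 0.90 for *Junb*. *Btg2* had r = 0.67, which fell to 0.07 without input KO replicate 2, and *Arc* had r = 0.13, which was 0.69 without it. These values are descriptions over libraries whose depth and makeup all genes share. Of 39 other activity-induced genes, 6 (15.4%) had an r of at least 0.8 with the mean of the 10, against 5.39% of 15987 genes that are not among the 10. They were the nuclear receptor *Nr4a2* (0.94), the matrix protein gene *Ccn1* (0.91), the repressor *Nfil3* (0.91), the AP-1 gene *Fosl2* (0.91), *Egr4* (0.85) and the kinase gene *Sik1* (0.82). The list had a median r of 0.26, against -0.08 over the other genes. Its lowest values were those of *Pim1* (-0.87), *Jund* (-0.87), *Ier5* (-0.83) and *Nptx2* (-0.83). More of its genes had a negative r, such as *Inhba* (-0.56) and *Ier5l* (-0.53). How many of all genes had an r as low was not counted. Input KO replicate 2 weighed on these values: without it *Sik1* had an r of 0.68, while *Dusp6* went from -0.31 to 0.96 and *Plk2* from -0.05 to 0.95. The most alike of all genes, in falling order from an r of 0.99 to 0.98, were *Tmem260*, *Zmpste24*, *Calu*, *Atp13a3*, *Sptlc2*, *Atad1*, *Mfsd14a*, *Mageh1*, *Ackr3* and *Vkorc1*. Their range was narrow by comparison, as *Tmem260* stood at 18.6 to 21.8 CPM over all input libraries.

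The genotype comparison asks whether loss of *Astn2* changes these genes in Purkinje cells or in whole cerebellum. In TRAP, 0 of the 10 genes passed the threshold (edgeR adjusted p of 1 for each), where 0.00707% of 14145 genes did, the 1 gene being *Astn2*. *Nr4a1* and *Fos* had an unadjusted p under 0.05, as had 1.5% of all genes (212 genes, and 95 to 1023 with one library left out). *Nr4a1* averaged 11.9 ± 6.40 CPM in TRAP KO (SD, n = 4) and 3.63 ± 0.802 CPM in TRAP WT (SD, n = 3). Replicate 1 of TRAP KO lay within the WT range and the other 3 above it. The log2 fold change was 1.77 ± 0.48 (SE; 95% interval 0.68 to 2.86; edgeR adjusted p = 1). *Fos* averaged 24.5 ± 14 CPM in TRAP KO (SD, n = 4) and 11 ± 6.08 CPM in TRAP WT (SD, n = 3), with a log2 fold change of 1.40 ± 0.48 (SE; 95% interval 0.30 to 2.51; edgeR adjusted p = 1). KO and WT overlapped for all 10 genes, and how many of all genes overlapped was not counted.

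The other 8 genes had smaller differences in TRAP. *Npas4* stood at 0.77 ± 0.85, *Dusp1* at 0.52 ± 0.51, *Junb* at 0.38 ± 0.20, *Egr1* at 0.30 ± 0.56 and *Fosb* at 0.20 ± 0.48 (log2 KO against WT, SE). *Ier2* stood at 0.10 ± 0.35, *Btg2* at -0.12 ± 0.30 and *Arc* at -0.24 ± 0.35. The intervals were wide, for example -0.98 to 1.57 for *Egr1* and -0.65 to 1.69 for *Dusp1*. The median of the 10 was 0.34, against 0.0018 over all genes. Granule markers in the same comparison had a median of 0.07, with 0 of 10 past the threshold. DESeq2's Wald test also called 0 of the 10 genes.

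In input, 0 of the 10 genes passed, against 0.0188% of 15997 genes. *Arc* was the only one of them with an unadjusted p under 0.05, as had 13.7% of all genes (2198 genes, and 946 to 3261 with one library left out). Every input KO library was below every input WT library for *Arc*, and how many of all genes were so separated was not counted. *Arc* averaged 9.69 ± 0.642 CPM in input KO (SD, n = 3) and 12.3 ± 1.17 CPM in input WT (SD, n = 4). Its log2 fold change was -0.32 ± 0.11 (SE; 95% interval -0.57 to -0.075; edgeR adjusted p = 0.272). In TRAP its difference was -0.24 ± 0.35 (SE, edgeR adjusted p = 1).

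The input differences of the variable genes had wide errors, 0.77 ± 1.14 for *Fos*, 0.50 ± 0.72 for *Nr4a1*, 0.38 ± 1.00 for *Npas4*, 0.49 ± 0.61 for *Fosb* and -0.24 ± 0.70 for *Dusp1* (log2, SE). Single libraries set their direction or size: *Fos* stood at -1.16 without input WT replicate 1 and at 3.37 without input KO replicate 3. These are the only female input WT and the only male input KO library. With the sex term, the value -1.16 rested on the 1 male library of input KO. The value 3.37 rested on the 1 female library of input WT. *Junb* (-0.09 ± 0.27), *Egr1* (0.04 ± 0.19), *Btg2* (-0.18 ± 0.22) and *Ier2* (-0.14 ± 0.25) were closer to 0. DESeq2's Wald test called 0 of the 10 genes in input.

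The interaction tests whether the genotype difference itself differs between TRAP and input. It called 0 of the 10 genes, where 0% of 16042 genes passed in edgeR, with an adjusted p of 0.999 for each of the 10, and 0 of them had an unadjusted p under 0.05, against 2.68% of all genes. DESeq2's Wald test called 0 of them as well. The smallest p was that of *Nr4a1*, 1.11 ± 0.85 on the log2 scale (SE; 95% interval -0.72 to 2.93; edgeR adjusted p = 0.999). For *Fos* the interaction was 0.07 ± 1.02 (SE; 95% interval -2.12 to 2.27).

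**Figure D5:**
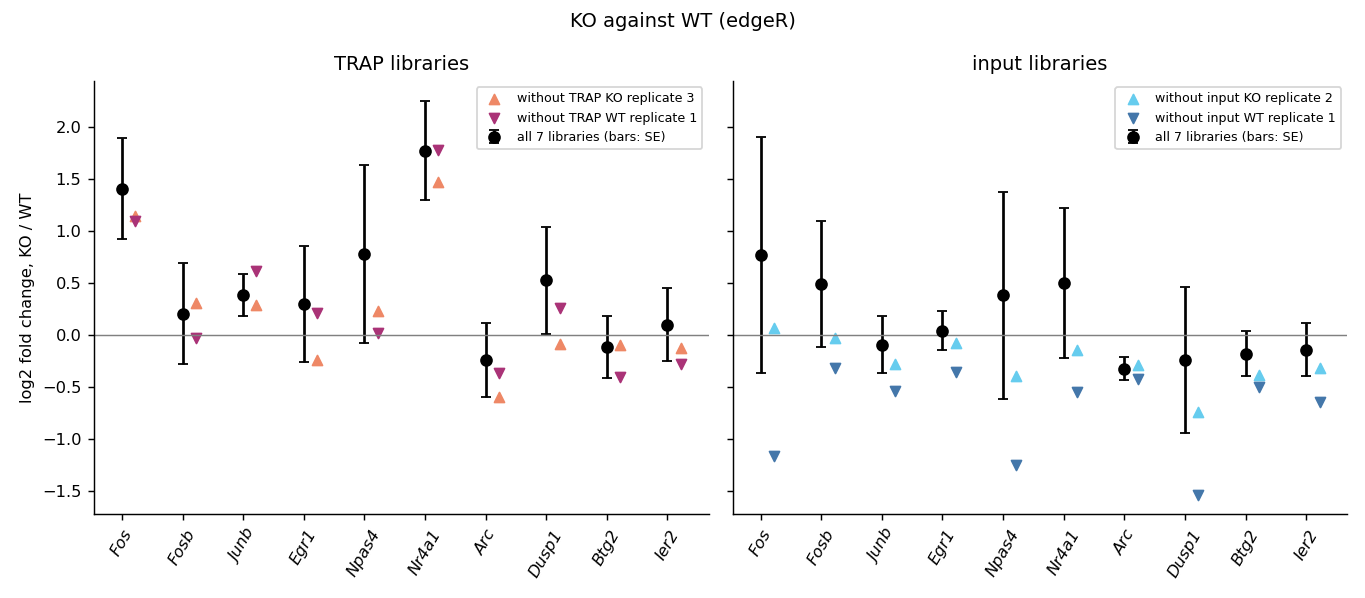
Log2 fold change of KO against WT in the 7 TRAP and the 7 input libraries, with SE bars (black), and the value without the library named in each legend (triangles). *Nr4a1* and *Fos* stay above 0 in TRAP, while in input *Fos*, *Fosb*, *Egr1*, *Npas4* and *Nr4a1* change sign without input WT replicate 1 and *Arc* stays below 0.

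Other activity-induced genes were found on both sides. Of 42 listed, 39 were tested (*Egr2*, *Fosl1* and *Ptgs2* were too low); 7 passed as higher and 18 as lower in TRAP in WT, and 7 and 19 did so in KO, with medians of -0.60 and -0.55. Of all genes tested, 37% were higher and 38.5% lower in WT, and 36.3% and 39.6% in KO. With library totals alone, 6 of the 39 were higher and 30 lower in each genotype. *Bdnf*, a neurotrophin, averaged 16.5 ± 3.32 CPM in the 4 input WT libraries (SD) and 2.56 ± 0.365 CPM in the 3 TRAP WT libraries (SD), a log2 fold change of -2.70 ± 0.24 (SE). The factor *Klf6* (-2.27 ± 0.19) and the ERK phosphatase *Dusp5* (-2.27 ± 0.19) were lower as well. *Ier3* was higher at 2.98 ± 0.19, from 6.87 ± 0.889 CPM in the 4 input WT libraries (SD) to 54.2 ± 18 CPM in the 3 TRAP WT libraries (SD). The synaptic pentraxin *Nptx2* (2.41 ± 0.27) and the pseudokinase *Trib1* (1.85 ± 0.16) were higher too. Between genotypes 0 passed in edgeR in either fraction, with 5 of 37 at an unadjusted p under 0.05 in TRAP, where 1.5% of all genes were, and 13 of 39 in input, where 13.7% were. DESeq2 called 1 in input, the clock gene *Per1* (log2 0.52, adjusted p = 0.0128), among 255 of all genes.

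Of 29 upstream regulators, 8 passed as higher in TRAP in each genotype, against 37% of all genes in WT and 36.3% in KO. As lower passed 12 of the 29 in each genotype, against 38.5% and 39.6%. *Elk3*, an SRF partner (-2.44 ± 0.23), the CREB coactivator *Crebbp* (-2.39 ± 0.18) and the calcium-dependent kinase gene *Camk4* (-2.18 ± 0.14) were the lowest in WT. *Crem*, a CREB relative (2.11 ± 0.14), *Map2k1*, the kinase of ERK (1.81 ± 0.18), and the ribosomal S6 kinase gene *Rps6ka2* (1.38 ± 0.22) were the highest (log2, SE). *Srf* was slightly higher at 0.27 ± 0.09, and lower at -0.55 with library totals alone, under which 5 of the 29 were higher and 22 lower in WT and 4 and 22 in KO. Between genotypes 0 of 29 passed in edgeR in either fraction. At an unadjusted p under 0.05 were 0 in TRAP, against 1.5% of all genes, and 8 in input, against 13.7%. In input DESeq2 called *Camk4* (0.35, adjusted p = 0.0303) and *Creb1* (0.27, adjusted p = 0.0306), among 255 of all genes. Without input KO replicate 2, edgeR also called *Camk4* (0.43, adjusted p = 0.0407), where 158 of all genes passed.

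Of 11 heat shock genes, which encode chaperones induced by cell stress, 7 passed as higher in WT and 8 in KO, against 37% and 36.3% of all genes. Of those 11, 0 passed as lower in either, against 38.5% and 39.6%. *Hspe1* (2.64 ± 0.21), *Hspb1* (1.90 ± 0.31) and *Hsph1* (1.35 ± 0.18) led in WT (log2, SE). With library totals alone the counts were 3 higher and 1 lower in WT and 2 and 2 in KO, and the median turned to -0.11 in WT and -0.19 in KO. Between genotypes 0 of 11 passed in edgeR in either fraction, and DESeq2 called 0. At an unadjusted p under 0.05 were 0 in TRAP, against 1.5% of all genes, and 4 in input, against 13.7%.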

How the data were processed

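RNA was sequenced from 14 libraries of mouse cerebellum, TRAP and input, *Astn2* WT and KO. The deposited values are raw counts per gene with Entrez numbers. Salmon 0.8.2 and the mm10 build are named in the submitters' processing notes with no role, and the counting tool, annotation and strand setting are not given in the sources used here. Per the labels' protocols, cycloheximide was in the dissection and lysis buffers. The table lists 24100 genes, of which 2930 are at 0 in every library, and symbols for 24045 came from the RefSeq gene table of GRCm38.p6.

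Tests were edgeR 4.0.16 quasi-likelihood fits (R 4.3.3), two-sided, on all genes kept by filterByExpr, with TMM factors, sex as a covariate and Benjamini-Hochberg adjustment over all genes tested at 0.05. TRAP against input and the interaction used all 14 libraries. KO against WT used the 7 libraries of a fraction. SE was obtained from the log2 fold change and the root of its F statistic. Levels are CPM with TMM factors, and log2(CPM + 1) uses a pseudocount of 1. A floor of 3 counts, the limit that a count of 0 allows, was 0.0438 to 0.205 CPM on this scale and covers counting error only. Within groups, the chi-square statistic of each pair of libraries over its degrees of freedom was 8.63 to 267, above sampling noise in all pairs. The fits were tested on simulated data.

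All 10 genes are named. From other lists, up to 3 genes a direction with the largest change in TRAP against input in WT are named, with the 10 genes most like the mean of the 10 in input. Other names were chosen after their values were seen. The genes, lists and tests were chosen with earlier results of these data known. Alternatives were DESeq2 size factors, library totals, the Wald test of DESeq2 1.42.0, omission of the sex term, all genes without a filter, a minimum mean count of 50, a replicate block, all 14 libraries in one fit, and each library left out.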

Additional observations from a re-analysis of the deposited data

How the results depend on the processing

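Over 924 values of the 10 genes under alternatives, 840 kept direction and side of the threshold, 16 passed it newly, 6 lost it and 62 turned. The counts of all genes that moved were, for KO against WT in TRAP (1 gene), 3 with DESeq2 and 2 with all 14 libraries in one fit; for KO against WT in input (3 genes), 5 with DESeq2 size factors, 23 with no filter and 255 with DESeq2; and for the interaction (0 genes), 1 with DESeq2. Genes with an unadjusted p under 0.05 between genotypes also moved: with all 14 libraries in one fit TRAP had 1197 in place of 212 and input 409 in place of 2198, and TRAP had 382 (no sex term) and 123 (replicate block). Of the 10 genes, 8 passed in TRAP against input in KO with library totals.

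With one library left out, 4 to 6 of the 10 genes passed in TRAP against input in WT (4 without input WT replicate 4 or TRAP WT replicate 1) and 3 to 8 in KO (3 without input KO replicate 2, 8 without input KO replicate 3). All genes called ranged from 1 to 2 between genotypes in TRAP and from 1 to 158 in input (158 without input KO replicate 2), and 0 of the 10 passed between genotypes in each.

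Values that turned in TRAP against input were *Ier2* in WT (-0.62 with library totals, -0.0053 with a mean count of at least 50) and KO (-0.21 with library totals) and *Junb* in KO (-0.67 with library totals, -0.13 with a mean count of at least 50). With one library left out, *Ier2* in WT ran from -0.19 to 0.39, *Junb* in KO from -0.18 to 0.34 and *Fos* in KO from -1.5 to 0.48. In the interaction, *Npas4* turned to 0.0078 with library totals and 0.21 without sex, and *Btg2* to -0.0025 without sex. What caused these turns was not tested.

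Between genotypes, the range with one library left out crossed 0 in TRAP for *Arc* (-0.59 to 0.062), *Btg2* (-0.41 to 0.24), *Egr1* (-0.24 to 1.01), *Dusp1* (-0.088 to 0.96), *Ier2* (-0.28 to 0.45) and *Fosb* (-0.032 to 0.72). In input it did so for *Fos* (-1.16 to 3.37), *Fosb* (-0.32 to 1.68), *Junb* (-0.54 to 0.48), *Egr1* (-0.36 to 0.52), *Npas4* (-1.25 to 2.78), *Nr4a1* (-0.54 to 1.75), *Btg2* (-0.50 to 0.20), *Dusp1* (-1.53 to 1.20) and *Ier2* (-0.65 to 0.46). In the interaction it did so for *Fos* (-0.76 to 1.28), *Fosb* (-1.06 to 0.26), *Egr1* (-0.17 to 1.09), *Npas4* (-0.96 to 1.1), *Btg2* (-0.11 to 0.52) and *Dusp1* (-0.10 to 1.28). The ends of the input ranges came without the only female input WT library (replicate 1) or the only male input KO library (replicate 3).

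Replicate numbers are shared between groups, and nothing in the labels says that they pair libraries. Same-numbered input and TRAP libraries correlated at -0.13 to 0.29 in their deviations from group means, and 5 of 6 input libraries correlated best with the TRAP library of their own number. With the replicate block, 6 of the 10 genes passed in TRAP against input in WT and 7 in KO, where *Fosb* (-1, adjusted p = 0.0388) and *Ier2* (0.78, adjusted p = 0.00363) were added. With the block, 1 of all genes passed between genotypes in input, *Arc* (0.068) and *Btg2* (0.13) turned between genotypes in TRAP, as did *Dusp1* (0.046) in input and *Npas4* (0.39) in the interaction, and 0 of the 10 passed in these 3 comparisons.

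Depth limits *Fosb* and *Npas4* most, since their TRAP levels rest on 4 to 19 and 0 to 23 counts a library.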

Other observations

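Among the other activity-induced genes, 3 had every TRAP KO library above every TRAP WT library at an unadjusted p under 0.05 (3 of 37 tested, 8.11%, against 67 of all 14145 genes, 0.474%), though none passed adjustment over all genes in edgeR (adjusted p = 1 each). They were *Sik1*, a kinase of the CREB coactivators (log2 1.52 ± 0.45 SE), *Nr4a2*, a nuclear receptor related to *Nr4a1* (1.22 ± 0.38 SE), and *Fosl2*, an AP-1 subunit (1.02 ± 0.32 SE). *Nr4a3*, the third receptor of that family, stood at 1 ± 0.32 (log2, SE, edgeR adjusted p = 1) with overlapping groups. In input, *Nr4a3* stood at 1.23 ± 0.41 (SE, edgeR adjusted p = 0.266), *Sik1* at 0.68 ± 0.26 (SE, edgeR adjusted p = 0.309) and *Fosl2* at 0.61 ± 0.24 (SE, edgeR adjusted p = 0.327). The input value of *Nr4a2* is not given here. Of the 39 listed genes tested in input, 32 had a positive log2 fold change (median 0.19). *Sik1*, *Nr4a2*, *Fosl2* and *Nr4a3* were picked after their values were seen, so the shares above are a description and no test. Without the condition on p, 4 of the 37 were separate in TRAP, and the share of all genes was not counted.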
